A study of Homo sapiens with 4 samples.

Results

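Genes are often arranged head to head, with 2 starts facing away from each other across a short stretch of DNA. Such a stretch acts as a bidirectional promoter, from which both genes are transcribed outwards. These promoters are mostly GC rich CpG islands and are common at housekeeping genes for DNA repair, mitochondria and histones. Smad2 and Smad3 are the receptor-activated Smads of the TGFβ pathway. After ligand binding they are phosphorylated, join Smad4 and move to the nucleus, where the DNA-binding domain of Smad3 recognises the Smad box and GC-rich sites, whereas the main form of Smad2 carries an insert that hinders direct contact with DNA.

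A divergent pair was taken as a minus-strand protein-coding gene whose start (the 5′ end of the gene in GENCODE release 44) lay 0 to 1000 bp upstream of the start of a plus-strand protein-coding gene. There were 887 such pairs, with a median gap of 132 bp between the starts. A peak was a member when its centre lay within 1 kb of both starts. Of the 89379 peaks in the TGFβ-1 lists, 423 were members, namely 253 of 26828 peaks for LAP-Smad2 (0.943%) and 170 of 62551 peaks for LAP-Smad3 (0.272%). The comparison asks whether the tagged Smads were found at the same divergent promoters, at the same place within them and in the same kind of sequence.

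The peaks came from ChIP-seq with an antibody against GFP in the human breast cancer line MDA-MB-231. The cells carried a bacterial artificial chromosome with Smad2 or Smad3 fused to the GFP-containing LAP tag under the gene's own regulatory sequence, were kept in Geneticin, and retained their own untagged Smads. They were left untreated or received 10 ng/mL TGFβ-1 for 2 h, with 1 library in each of the 4 conditions, so that no difference has a replicate check and no test was made. Intervals are Wilson 95% intervals that cover counting error over promoters or peaks and not the spread between experiments. For the untreated libraries, the sample labels and the names of the deposited lists give opposite Smads, and they are called here by the labels, with no direction drawn from them. The lists hold no read totals, so their depth is unknown, and peak scores were compared only within a list.

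The member windows below show the kind of sequence that carried the peaks. Each is the reference sequence (hg38, plus strand) of the 200 bp around a peak centre, chosen for high peak scores among the windows without annotated exon and near-identical copy. Capitals mark the GC-rich Smad core GGCGC, or GCGCC on the other strand, and the Smad box CAGAC, or GTCTG on the other strand. The first windows held LAP-Smad2 peaks after TGFβ-1. They lay in introns of PYURF (chr4:88523281-88523480) and of NKAIN4 (chr20:63272195-63272394).
PYURF/HERC3: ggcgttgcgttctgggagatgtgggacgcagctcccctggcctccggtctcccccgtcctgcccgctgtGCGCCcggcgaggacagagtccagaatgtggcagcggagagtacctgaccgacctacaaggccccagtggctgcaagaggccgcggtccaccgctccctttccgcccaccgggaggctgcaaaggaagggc
NKAIN4/ARFGAP1: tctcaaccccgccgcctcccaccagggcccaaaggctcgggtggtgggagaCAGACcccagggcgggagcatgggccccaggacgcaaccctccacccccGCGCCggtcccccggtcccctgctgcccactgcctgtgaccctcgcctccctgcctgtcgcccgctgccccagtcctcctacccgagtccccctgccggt
The next 3 windows held LAP-Smad3 peaks after TGFβ-1. They lay between the starts of TTI1 and RPRD1B (chr20:38033508-38033707), in an intron of ARL3 (chr10:102713717-102713916) and in an intron of TAF5L (chr1:229625328-229625527).
TTI1/RPRD1B: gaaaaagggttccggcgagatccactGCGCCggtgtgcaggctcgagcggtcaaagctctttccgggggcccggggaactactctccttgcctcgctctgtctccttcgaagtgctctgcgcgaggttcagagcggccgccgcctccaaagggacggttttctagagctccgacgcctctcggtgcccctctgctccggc
ARL3/SFXN2: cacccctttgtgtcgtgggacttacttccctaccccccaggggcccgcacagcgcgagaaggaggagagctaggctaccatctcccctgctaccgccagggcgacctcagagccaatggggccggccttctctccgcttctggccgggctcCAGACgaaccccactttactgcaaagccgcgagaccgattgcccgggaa
TAF5L/URB2: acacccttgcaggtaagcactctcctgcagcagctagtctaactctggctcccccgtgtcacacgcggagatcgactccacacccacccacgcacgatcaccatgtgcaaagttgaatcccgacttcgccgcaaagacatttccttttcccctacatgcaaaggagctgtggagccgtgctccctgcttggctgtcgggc
The LAP-Smad2 windows had a GC content of 69% and 74.5%, both held the GC-rich core, and that of NKAIN4/ARFGAP1 also held a Smad box. The LAP-Smad3 windows had a GC content of 65%, 65% and 58%. The core was present in the first of them, a Smad box in the second, and the third held neither.

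Many divergent pairs held a peak of LAP-Smad2 or LAP-Smad3 and few held both. LAP-Smad2 peaks were present at 237 of 887 pairs (26.7%, 23.9 to 29.7) and LAP-Smad3 peaks at 168 pairs (18.9%, 16.5 to 21.7). For comparison, 22.0% of all protein-coding starts had a LAP-Smad2 peak centre within 1 kb and 13.8% had a LAP-Smad3 peak centre. Peaks of both were found at 44 pairs (4.96%), LAP-Smad2 alone at 193 and LAP-Smad3 alone at 124, while 526 pairs (59.3%) held neither. Of the LAP-Smad2 pairs, 18.6% (14.1 to 24.0) also held LAP-Smad3, against 19.1% of the 650 pairs without LAP-Smad2. Of the LAP-Smad3 pairs, 26.2% (20.1 to 33.3) also held LAP-Smad2, against 26.8% of the 719 pairs without LAP-Smad3. The share with one protein was thus about the same in pairs with and without the other. The LAP-Smad3 list was the longer one, and when it was cut to the length of the LAP-Smad2 list by −log10 q, the LAP-Smad3 share of pairs was 8.91%. With the centre within 500 bp of both starts, the shares were 15.8% for LAP-Smad2 and 13.2% for LAP-Smad3.

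Where both were present, the peaks overlapped in 56.8% of the pairs (42.2 to 70.3) and lay apart in the others. In the 44 shared pairs the centres of the LAP-Smad2 and LAP-Smad3 peaks lay a median of 245 bp from each other, and in 25 of them the peaks overlapped by at least 1 bp. Over the members, 24 of 253 LAP-Smad2 peaks (9.49%) overlapped a LAP-Smad3 peak, against 24.5% of the whole LAP-Smad2 list and 8.64% of its peaks at one-way starts. A one-way start is a protein-coding start outside the divergent pairs and without an opposite protein-coding start within 1 kb. For LAP-Smad3, 25 of 170 members (14.7%) overlapped a LAP-Smad2 peak, against 10.6% of the whole list and 14.1% of its one-way peaks. The members thus shared as many peaks as one-way promoter peaks did, in both lists, within the intervals (6.46% to 13.7% for LAP-Smad2 and 10.2% to 20.8% for LAP-Smad3).

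The untreated lists were shorter and had few such peaks. Members were 39 of the 3511 peaks labelled LAP-Smad3 untreated (1.11%, 0.814 to 1.51) and 6 of the 11266 peaks labelled LAP-Smad2 untreated (0.0533%). The first of these shares was no lower than that of either TGFβ-1 list. Of the 887 pairs, 7 held a peak of the library labelled LAP-Smad2 untreated and 41 a peak of the library labelled LAP-Smad3 untreated. Of the latter 41 pairs, 35 (85.4%, 71.6 to 93.1) held a LAP-Smad2 peak after TGFβ-1 and 9 (22.0%, 12 to 36.7) held a LAP-Smad3 peak after TGFβ-1. Among its 39 member peaks, 30 (76.9%, 61.7 to 87.4) overlapped a LAP-Smad2 TGFβ-1 peak and 5 (12.8%, 5.60 to 26.7) overlapped a LAP-Smad3 TGFβ-1 peak. Of the 512 one-way peaks of this list, 60.7% (56.4 to 64.9) and 9.77% (7.49 to 12.6) did so, with intervals that overlap those of the members. Their windows had a mean GC content of 71.3% ± 4.53 (SD over peaks), close to the LAP-Smad2 members described below. Of the 7 pairs in the library labelled LAP-Smad2 untreated, 4 held a LAP-Smad2 peak and 2 a LAP-Smad3 peak after TGFβ-1. Peaks in 3 of the 4 lists were present at 9 pairs, among them PDCD10/SERPINI1, RPL12/LRSAM1, SNX5/MGME1, GPC2/STAG3 and the histone pairs H2AC15/H2BC15 and H2BC13/H2AC13. These names were picked from the 9 after their values were seen. No pair had a peak in all 4 lists, which allows a share of up to 0.431%.

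Within the pairs, LAP-Smad2 peaks were scarce in the middle. LAP-Smad2 centres lay a median of 383 bp from the midpoint between the starts (quartiles 283 and 514.5 bp), and LAP-Smad3 centres a median of 316 bp (quartiles 164 and 471 bp). A peak near several overlapping pairs was counted once for each pair, which gave 267 LAP-Smad2 and 188 LAP-Smad3 positions. Within 100 bp of the midpoint lay 4.49% of LAP-Smad2 positions (2.59 to 7.69) and 18.1% of LAP-Smad3 positions (13.2 to 24.2). From 200 to 600 bp away lay 72.3% and 57.4%, respectively. Between the starts themselves lay 12 LAP-Smad2 positions (4.49%) and 24 LAP-Smad3 positions (12.8%), where the stretch between the starts made up a mean of 13.1% of the window in which members were sought. That mean is over all pairs, with or without a peak. The interval of the LAP-Smad3 share (8.73 to 18.3) included it, and that of the LAP-Smad2 share (2.59 to 7.69) lay below it. Pairs with a peak had a shorter mean gap, but not in each case a shorter median gap. The mean gap was 166 bp with LAP-Smad2 alone, 176 bp with LAP-Smad3 alone and 198 bp with both, against 220 bp with neither. The medians were 130, 115.5 and 150.5 bp, respectively, against 134.5 bp with neither. The share of the window taken by the stretch in pairs with a peak was not computed, so that the size of either difference is not known. Outside that stretch, 124 of 267 LAP-Smad2 positions fell in introns of the nearer gene, 73 in coding exons and 57 in untranslated exons, and for LAP-Smad3 the numbers were 70, 38 and 56 of 188. Neither strand was preferred, since 46.4% of LAP-Smad2 and 48.9% of LAP-Smad3 positions lay on the side of the minus-strand gene, with intervals that include equal shares.

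**Figure D1:**
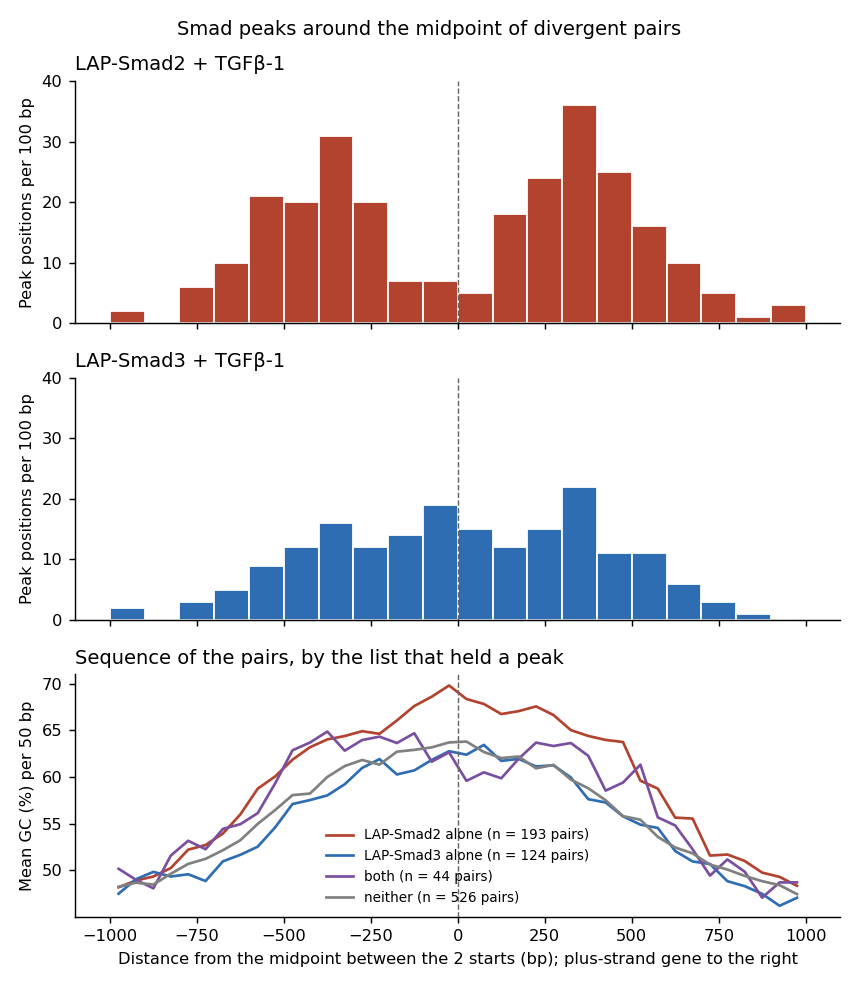
Number of member peak positions per 100 bp of distance from the midpoint between the 2 starts, for LAP-Smad2 (top) and LAP-Smad3 (middle) after TGFβ-1, and mean GC content per 50 bp of the pairs grouped by the list that held a peak (bottom). LAP-Smad2 positions form a hump on each side with a trough at the midpoint, where 4.49% lie within 100 bp, whereas 18.1% of LAP-Smad3 positions lie there.

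Measured from the nearer start into the gene, the median position was 290 bp for LAP-Smad2 members and 223 bp for LAP-Smad3 members. One-way peaks have a single start to be measured from, so that their distances were not compared with these. A second member peak was present at 29 of the LAP-Smad2 pairs and 19 of the LAP-Smad3 pairs, and in 22 and 17 of these, respectively, the peaks lay on both sides of the midpoint. RPL12/LRSAM1 is an example with values in hand, where RPL12 encodes a protein of the large ribosomal subunit. LAP-Smad2 peaks lay 287.5 bp to the RPL12 side and 563.5 bp to the LRSAM1 side of the midpoint, with fold enrichments of 4.01 and 3.69. The LAP-Smad3 peaks of this pair lay 513.5 and 15.5 bp to the RPL12 side, with fold enrichments of 4.90 and 5.02. The distance between the starts made little difference to the share with a peak. From the pairs with the shortest gaps (1 to 69 bp) to those with the longest (249 to 1000 bp), the shares over the 4 classes of gap were 23.2%, 30.3%, 30.5% and 23% for LAP-Smad2, and 17.4%, 21.7%, 18.6% and 18.0% for LAP-Smad3, with overlapping intervals.

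The lists also differed in base composition. The 200 bp windows of LAP-Smad2 members had a GC content of 71.0% ± 4.91 (SD over 253 peaks), and those of LAP-Smad3 members 62.5% ± 4.58 (SD over 170 peaks), a difference of 8.51 percentage points. The one-way peaks had much the same values, 71.2% for LAP-Smad2 and 62.0% for LAP-Smad3, and all peaks that were not members, the one-way peaks included, had 63.8% and 58.5%. The observed over expected CpG ratio of the members was 0.807 for LAP-Smad2 and 0.788 for LAP-Smad3. At one-way starts it was 0.773 and 0.592, so that LAP-Smad3 members were richer in CpG than LAP-Smad3 one-way peaks. The promoter classes themselves differed in the same direction. Over the 1 kb around the midpoint or the single start, this ratio had a mean of 0.769 in all 887 pairs and 0.576 in all one-way starts, with or without a peak.

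The GC contrast between the lists was also seen over the whole promoter. The 1 kb around the midpoint had a GC content of 65.8% ± 6.04 (SD) in the pairs with LAP-Smad2 alone, 60.1% ± 6.07 with LAP-Smad3 alone, 62.4% ± 4.83 with both and 60.9% ± 7.07 with neither. With rising GC content the share of pairs with LAP-Smad2 rose, from 8.59% below 55% GC, through 12.8%, 31.0% and 39.1%, to 45.9% at 70% GC and above. The share with LAP-Smad3 was 20.3% below 55% GC, 25.7% from 55 to 60%, 20.9% from 60 to 65%, 11.5% from 65 to 70% and 11.0% at 70% and above. The highest LAP-Smad2 share and the lowest LAP-Smad3 share were thus in the same class, of 109 pairs. The class from 60 to 65% GC had the most pairs with both, 22 of 258.

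Within a pair, the peak lay on the GC-richer side. For the 155 pairs with a single LAP-Smad2 peak at least 200 bp from the midpoint, the peak window had a GC content of 71.1% ± 4.91 (SD). The window at the same distance on the opposite side had 56.7% ± 12.2 and the window at the midpoint 66.9% ± 10.1. The peak side had the higher GC content in 134 of the 155 pairs (86.5%, 80.2 to 91.0). For the 83 such LAP-Smad3 pairs, the values were 62.6% ± 4.74 at the peak, 57.2% ± 10.8 opposite and 64.4% ± 11.1 at the midpoint, with the peak side higher in 57 pairs (68.7%, 58.1 to 77.6). GC content also affects how DNA fragments are amplified and sequenced, and its part in which windows were called was not tested.

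**Figure D2:**
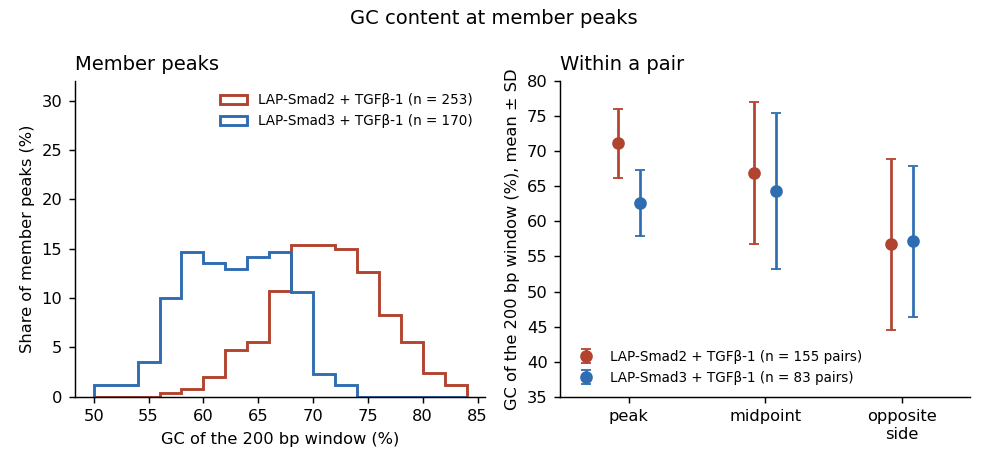
Left, distribution of GC content over the 200 bp windows of member peaks, as a share of the peaks of each list. Right, mean GC content (bars are SD over pairs) at the peak, at the midpoint and at the mirrored position for pairs with a single peak. LAP-Smad2 members centre on 71.0% and LAP-Smad3 members on 62.5%, and the side opposite to the peak is lower in both.

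Divergent promoters were compared with one-way promoters over equal windows of 1 kb. The windows were equal in length only, since a divergent window reaches into 2 genes and a one-way window into 1. Peaks within 1 kb of one-way starts lay mostly inside the gene, at a median of 284 bp from the start for LAP-Smad2 and 110.5 bp for LAP-Smad3. How much this adds to the divergent shares and ratios below was not tested. LAP-Smad2 peak centres were present in 19.7% of 887 divergent windows (17.2 to 22.5) and 15.5% of 17354 one-way windows. Reweighted to the GC content of the divergent windows, the one-way share was 20.3%, which gave a ratio of 0.972 (0.849 to 1.11). LAP-Smad3 peak centres were present in 15.1% of divergent windows (12.9 to 17.6) and 8.39% of one-way windows. The reweighted one-way share was 10.2% and the ratio 1.47 (1.26 to 1.72). Reweighted instead by the observed over expected CpG ratio, the ratios were 0.864 (0.755 to 0.984) for LAP-Smad2 and 1.66 (1.42 to 1.94) for LAP-Smad3. The LAP-Smad2 ratio thus included 1 at matched GC content, lay below 1 at matched CpG ratio and lay above 1 without reweighting, at 1.27 (1.11 to 1.45), so that its direction depends on the reweighting. The LAP-Smad3 ratio lay above 1 in each case by more than the counting error of a single library. That error takes the pairs as independent, although some pairs share a gene and a peak. Over the 739 pairs in no other pair and without readthrough genes, the LAP-Smad3 ratio at matched GC content was 1.29 (1.07 to 1.55), the lowest of its alternatives. The LAP-Smad2 ratio was 1.01 (0.872 to 1.16) over these pairs. The pooled LAP-Smad2 ratio hides 1 class, from 55 to 60% GC, where 15 of 218 divergent windows (6.88%, 4.21 to 11.04) and 14.4% of one-way windows held a peak. In the same class LAP-Smad3 peaks were in 23.4% of divergent windows (18.3 to 29.4) and 15.4% of one-way windows. From 60 to 65% GC they were in 18.2% (14.0 to 23.4) and 11.0%, respectively. In all other classes with both kinds of window, the intervals of the LAP-Smad3 shares overlapped. Members and other promoter peaks had similar fold enrichments. The median fold enrichment was 3.87 for LAP-Smad2 members and 3.88 for its one-way peaks, and 5.07 and 4.97 for LAP-Smad3. By −log10 q, the best LAP-Smad2 member was at rank 632 and the best LAP-Smad3 member at rank 1385.

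**Figure D3:**
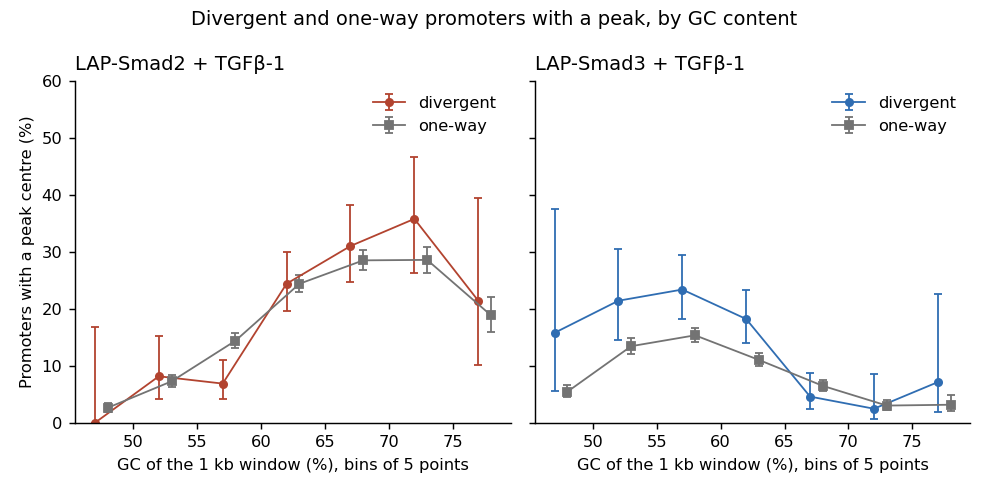
Share of 1 kb promoter windows with a peak centre against their GC content, for divergent pairs (coloured) and one-way starts (grey), with Wilson 95% intervals. The LAP-Smad2 share at one-way starts rises up to the bin of 70 to 75% GC, and that of divergent pairs dips to 6.88% from 55 to 60% GC. In all other bins shared by both, the LAP-Smad2 intervals overlap. The LAP-Smad3 curve of divergent pairs lies above that of one-way starts from 45 to 65% GC. The LAP-Smad3 intervals overlap below 55% GC and from 65% GC upwards.

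Among the named pairs, the highest scoring LAP-Smad2 member outside windows with a near-identical copy was at CHDH/IL17RB. CHDH encodes choline dehydrogenase and IL17RB a receptor of the interleukin 17 family. Its centre lay 42.5 bp from the midpoint, with a fold enrichment of 6.65, a −log10 q of 12.3 and a window GC content of 78.5%, and no other list had a peak at this pair. It is 1 of the 12 LAP-Smad2 positions between the starts. The stretch between the starts (chr3:53846420-53846567, hg38, plus strand) is shown because it holds the GC-rich core 4 times, in capitals, with sites on either strand counted.
CHDH/IL17RB: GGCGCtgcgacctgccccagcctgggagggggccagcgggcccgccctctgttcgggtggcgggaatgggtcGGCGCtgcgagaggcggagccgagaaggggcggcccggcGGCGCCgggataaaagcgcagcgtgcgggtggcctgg
Next came a peak shared by H3C12/H2BC17 and H2AC17/H2BC17 (fold enrichment 5.25, −log10 q 10.7). It was followed by TRUB2/COQ4 (4.76 and 8.86) and SNX5/MGME1 (5.46 and 8.79). TRUB2 is a mitochondrial pseudouridine synthase, COQ4 takes part in coenzyme Q synthesis, SNX5 is a sorting nexin and MGME1 a nuclease of mitochondrial DNA. At TRUB2/COQ4 the peak lay 545.5 bp to the COQ4 side, and at SNX5/MGME1 it lay 653 bp to the SNX5 side, each in a coding exon.

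Outside windows with a near-identical copy, the highest scoring LAP-Smad3 member was at C11orf98/CSKMT, 189.5 bp to the side of CSKMT, which methylates citrate synthase. It had a fold enrichment of 7.56, a −log10 q of 11.2 and a window GC content of 66%. The same peak also belongs to the pair of CSKMT with ENSG00000255432, a gene that overlaps C11orf98. The stretch between the starts of C11orf98 and CSKMT (chr11:62665211-62665308, hg38, plus strand) is shown because it holds CCAAT and TATAAA, motifs compared below, beside the GC-rich core in capitals. It lies outside the peak (chr11:62665332-62665566), so that these sites are not part of the member window.
C11orf98/CSKMT: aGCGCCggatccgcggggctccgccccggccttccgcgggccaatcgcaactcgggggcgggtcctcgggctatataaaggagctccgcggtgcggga
At TTI1/RPRD1B, printed above, the LAP-Smad3 peak was centred 15 bp from the midpoint, with a fold enrichment of 7.86 and a −log10 q of 9.63. TTI1 stabilises kinases of the PIKK family and RPRD1B binds the tail of RNA polymerase II. The remaining members of this group were C2orf76/DBI (7.76 and 9.47) and GNL1/PRR3 (6.96 and 9.42), and both pairs also held a LAP-Smad2 peak. At C2orf76/DBI the peaks of both proteins lay on the side of DBI, the acyl-CoA binding protein, at 586 bp for LAP-Smad2 and 749 bp for LAP-Smad3. At GNL1/PRR3 they lay on opposite sides, 546.5 bp to the GNL1 side for LAP-Smad2 and 595.5 bp to the PRR3 side for LAP-Smad3.

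The pairs that ranked best in both lists were H2AC15/H2BC15, H2BC4/H2AC6, ARL3/SFXN2 and MED20/BYSL, the last with a further overlapping pair of BYSL. ARL3 is a small GTPase of cilia, SFXN2 a mitochondrial carrier, MED20 a Mediator subunit and BYSL a ribosome assembly factor. At ARL3/SFXN2 the LAP-Smad2 peak lay 318.5 bp to the ARL3 side (fold enrichment 4.25, −log10 q 6.78), and the LAP-Smad3 peak lay 650.5 bp to the same side (6.33 and 7.42). At MED20/BYSL the LAP-Smad2 peak lay 298 bp to the BYSL side and the best LAP-Smad3 peak 308 bp to the MED20 side.

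The clustered histone genes had the highest shares among the gene lists with at least 6 pairs. They are expressed in S phase and often lie head to head as H2A and H2B pairs. Of 15 such pairs, 9 held LAP-Smad2, 8 held LAP-Smad3, 5 held both and 12 held either, against 26.7%, 18.9%, 4.96% and 40.7% of all pairs. These pairs were not GC rich, with a median GC content of 54.7% over 1 kb. Several of them share a gene and a peak, and the coding sequences of histone genes are close copies of each other, so that the source of reads is uncertain there. The LAP-Smad2 peaks of H2BC4/H2AC6, H2BC13/H2AC13, H2AC15/H2BC15 and H2BC21/H2AC20 lay in windows with a near-identical copy elsewhere, whereas that of H2AC17/H2BC17 did not. Of LAP-Smad3, H2BC11/H2AC11 had peaks on both sides of the midpoint, with −log10 q of 8.94 in a window with a copy and 5.57 in a window without. Near-identical copies were found for 12 of 253 LAP-Smad2 and 16 of 170 LAP-Smad3 members. The strongest members by −log10 q, at DHX32/FANK1 for LAP-Smad2 (15) and DTYMK/ING5 for LAP-Smad3 (11.7), were among them.

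The other gene groups had at most 41 pairs each, so that their counts are small. Over all pairs, 26.7% held LAP-Smad2, 18.9% held LAP-Smad3 and 4.96% held both, and the groups lay on either side of these shares. Of 41 pairs with a DNA repair or replication gene, 7 held LAP-Smad2, 8 held LAP-Smad3 and 1 held both. Examples for LAP-Smad2 were ABHD12/GINS1 (fold enrichment 3.87) and LIPT2/POLD3 (3.63), with a subunit of the GINS replication complex and of DNA polymerase delta, and for LAP-Smad3 TOP3A/SMCR8 (6.24) and ORC1/PRPF38A (5.39), with a topoisomerase and the largest subunit of the origin recognition complex. Of 18 pairs with a gene of the mitochondrial ribosome, 1 held LAP-Smad2 (TCP1/MRPL18) and 5 held LAP-Smad3, among them HELQ/MRPS18C, where the peak was centred 2.5 bp from the midpoint, and MRPL27/EME1, at 30.5 bp. Of 28 respiratory chain pairs, 6 held LAP-Smad2, such as CCDC127/SDHA (fold enrichment 4), and 4 held LAP-Smad3, such as ERCC8/NDUFAF2 (5.52). Of 25 pairs with tubulin, centrosome or cilium genes, 8 held LAP-Smad2 and 3 held LAP-Smad3. The counts were 6 and 5 of 25 for RNA polymerase and splicing genes, 3 and 2 of 10 for cell cycle genes, 3 and 1 of 6 for the proteasome, 4 and 2 of 30 for ZNF genes, and 1 and 0 of 3 for aminoacyl-tRNA synthetases. Numbers this small give no order between the gene lists.

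**Figure D4:**
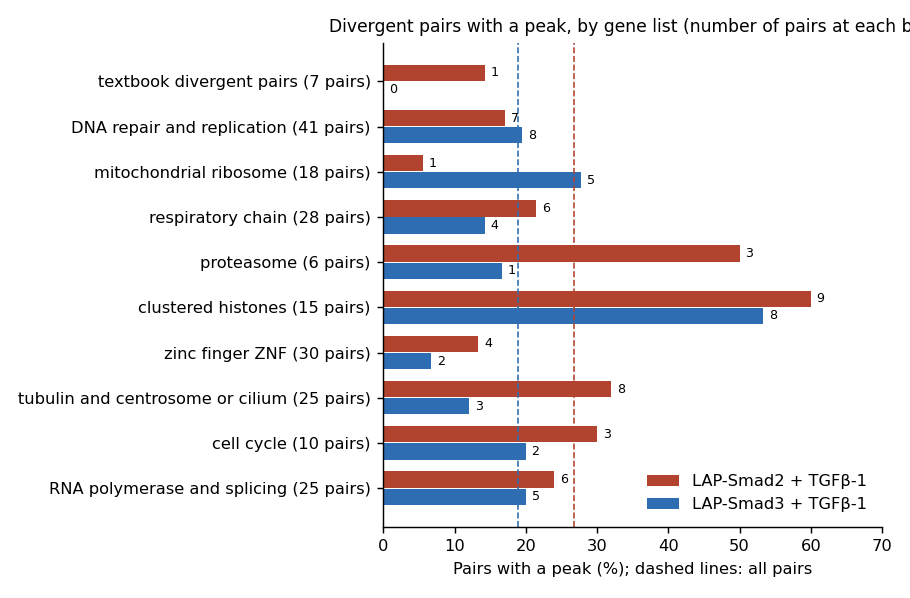
Share of divergent pairs with a LAP-Smad2 (red) or LAP-Smad3 (blue) peak after TGFβ-1 for each list of genes with at least 6 pairs. The number at each bar is the count of pairs with a peak, and the dashed lines are the shares over all 887 pairs, 26.7% and 18.9%. The clustered histones lie above both lines, with 9 and 8 of 15 pairs.

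Genes of the TGFβ pathway in divergent pairs are given as counts only, since the share of all protein-coding genes in such pairs was not computed. Of 84 pathway and target genes, 2 were in a divergent pair, the type I receptor ACVR1 with UPP2, and STRAP, which binds the receptors and Smad7, with EPS8. Neither pair held a peak in any of the 4 lists, and 59.3% of all pairs held no peak of the TGFβ-1 lists. The divergent type IV collagen pairs COL4A4/COL4A3 and COL4A6/COL4A5, which encode chains of the basement membrane, held none either. With so few pairs, these absences do not set the genes apart from other divergent pairs. Of 7 pairs made by divergent genes long used as textbook cases, such as PPAT/PAICS, NPAT/ATM and TK1/AFMID, PRKDC/MCM4 held a LAP-Smad2 peak (fold enrichment 4.57), in a window with a near-identical copy, and none held LAP-Smad3. The stretch between COL4A4 and COL4A3 (chr2:227164454-227164623, hg38, plus strand) is shown as a pair without a peak. It holds neither the GC-rich core nor the Smad box, so that it has no capitals. That is not general to pairs without a peak. The stretch of EPS8/STRAP also holds neither, but those of PPAT/PAICS, TMEM258/FEN1 and SARS2/MRPS12 hold the core and that of TK1/AFMID a Smad box. Among the stretches read at named pairs with a peak, that of H2AC15/H2BC15 holds neither and the others hold the core.
COL4A4/COL4A3: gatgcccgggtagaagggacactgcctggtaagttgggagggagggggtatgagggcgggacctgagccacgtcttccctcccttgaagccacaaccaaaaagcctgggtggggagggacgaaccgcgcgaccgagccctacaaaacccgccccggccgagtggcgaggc

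Motifs were searched on both strands in the 200 bp windows of the members and in 2630 windows of the 526 pairs without a peak, at the midpoint and up to 400 bp from it. The shares in the latter were also reweighted to the GC content of the members. GGCGC was found in 77.5% of LAP-Smad2 members (71.9 to 82.2), 55.9% of LAP-Smad3 members (48.4 to 63.1) and 48.9% of windows of pairs without a peak. At matched GC content the pairs without a peak reached 74.9% and 52.2%, respectively. GGCCG behaved alike, with 81.4% and 57.1% of members against 76.3% and 54.0%. The Smad box CAGAC was found in 26.1% of LAP-Smad2 members (21.1 to 31.8) and 32.4% of LAP-Smad3 members (25.8 to 39.7), against 34.4% of windows of pairs without a peak. At matched GC content these reached 32.9% and 36.6%. Neither Smad motif was thus clearly more frequent in members than in the other divergent promoters of the same GC content.

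The motifs of the general promoter factors NF-Y, ETS and Sp1 were less frequent in LAP-Smad2 members than at matched GC content. That of Sp1 was less frequent in LAP-Smad3 members too. CCAAT, the site of NF-Y, was found in 5.53% of LAP-Smad2 members (3.32 to 9.07) against 17.0% at matched GC content. CCGGAAG, the site of ETS factors, was found in 3.56% (1.88 to 6.62) against 10.4%. GGGCGG, the site of Sp1, was found in 53.4% (47.2 to 59.4) against 69.1%. Of LAP-Smad3 members, 19.4% held CCAAT (14.2 to 26.0) against 22.9%, 12.9% held CCGGAAG (8.70 to 18.8) against 10.8%, and 30.6% held GGGCGG (24.2 to 37.9) against 43.1%. Since these motifs are concentrated between the starts, members at least 200 bp from the midpoint were also set beside windows 300 and 500 bp from the midpoint of pairs without a peak. There, CCAAT was at 5.56% of 216 LAP-Smad2 members (3.21 to 9.46) against 9.92%, CCGGAAG at 2.78% (1.28 to 5.93) against 4.35%, and GGGCGG at 52.3% (45.7 to 58.9) against 63.6%. For LAP-Smad2, the CCAAT difference shrank at matched distance, and the interval of CCGGAAG includes the value of the pairs without a peak. Of the 118 LAP-Smad3 members at this distance, 12.7% held CCAAT (7.86 to 19.9) against 17.3%, 28.0% held GGGCGG (20.7 to 36.7) against 40.3%, and 10.2% held CCGGAAG (5.91 to 16.9) against 5.15%. The share with the ETS site was thus above that of the pairs without a peak for LAP-Smad3, with an interval that narrowly excludes it, and 12 members carried it. Over all LAP-Smad3 members the interval included the matched value. Many motifs were compared without correction, and the matched values are given without their own counting error.

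The E-box CANNTG, read by basic helix-loop-helix factors, was found in 48.2% of LAP-Smad2 members (42.1 to 54.4) against 40.9% at matched GC content, and in 41.2% of LAP-Smad3 members (34.1 to 48.7) against 48.2%. Its form CAGCTG, which CANNTG includes, was found in 15.8% of LAP-Smad2 members (11.8 to 20.8) against 10.8%, and in 11.2% of LAP-Smad3 members (7.27 to 16.8) against 11.5%. At matched distance it was at 16.2% of LAP-Smad2 members (11.9 to 21.7) against 10.8%. The nuclear receptor motif AGGTCA was found in 8.70% of LAP-Smad2 members (5.81 to 12.8) against 6.64%, and in 7.65% of LAP-Smad3 members (4.52 to 12.6) against 10.1%. Both intervals include the matched value. TATAAA was found in 0 of 253 LAP-Smad2 members, which allows a share of up to 1.496%, against 0.436% at matched GC content. Of LAP-Smad3 members 2.35% held it (0.919 to 5.89) against 1.55%, and neither list differed from the matched windows beyond the counting error. The sites of NRF1 (GCATGCGC), CREB (TGACGTCA), YY1 (ATGGCGGC), ZBTB33 (TCTCGCGA), AP-1 (TGANTCA) and MYC (CACGTG, a form of CANNTG) and the Smad palindrome GTCTAGAC were each in under 5% of the members of either list.

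**Figure D5:**
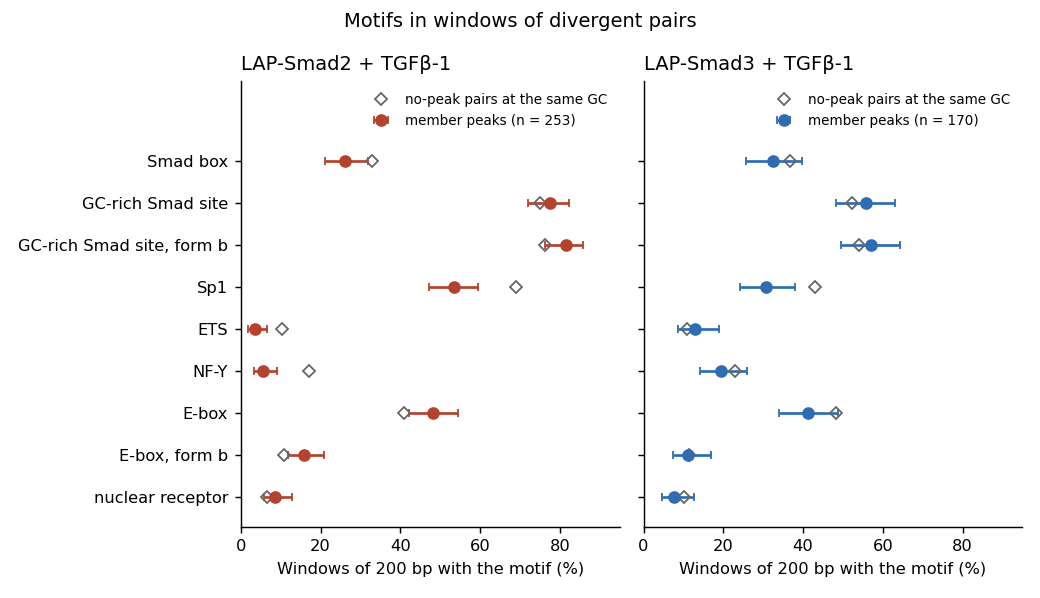
Share of 200 bp windows with each motif in member peaks (filled points, Wilson 95% intervals) and in divergent pairs without a peak at the same GC content (open diamonds), for motifs found in at least 5% of the latter before reweighting. Smad box is CAGAC, the GC-rich Smad sites are GGCGC and, as form b, GGCCG, and E-box form b is CAGCTG. In LAP-Smad2 members Sp1, ETS and NF-Y lie left of their diamonds, at 53.4%, 3.56% and 5.53%. In LAP-Smad3 members Sp1 also lies left of its diamond, at 30.6%, with an interval that excludes it.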

How the data were processed

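ChIP-seq with an antibody against GFP was performed by the authors in 4 conditions of MDA-MB-231 cells, with 1 library each. Per the labels and methods, the authors used Bowtie2 and hg38 for alignment, and MACS2 for peak calling on reads extended to 200 bp, with q-values below 0.05. Bedtools is also named in the submitters' processing notes, and tool versions and the control library are not given in the sources used here. The deposited lists hold, for each peak, a score derived from its q-value, the fold enrichment, a ratio of the pileup at the summit to the local background, the −log10 p and −log10 q values, and the offset of the summit. The scores were not used. Read totals are not part of the lists, and the depth is unknown.

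From the lists, members were found with Python 3.11.15, pandas 2.3.3 and pysam 0.24.0, with gene starts of 20033 protein-coding genes from GENCODE release 44. Centres of peak intervals were used. Windows of 200 bp were read from hg38 and Wilson intervals were computed with statsmodels 0.14.6. Shares in other promoters were reweighted to the GC content of the members or pairs in bins of 5 percentage points. A window had a near-identical copy if more than 1 alignment by minimap2 2.31 to hg38 without alternative sequences matched at least 90% of its bases, with up to 50 further alignments listed per window. The functions were tested on simulated data, where 8 of 8 checks passed. No test between libraries was possible with 1 library per condition. Named pairs were the 5 per TGFβ-1 list with the largest −log10 q, leaving out the SMAD2 and SMAD3 loci and windows with a near-identical copy, the 5 that ranked best in both lists, and all pairs of the TGFβ, type IV collagen and textbook lists. The highest pairs with a copy, the pairs in 3 lists, the RPL12/LRSAM1 example and the examples of gene groups were chosen after their values were seen. The class of promoter, the gene lists, motifs and alternatives were chosen with earlier results of these data known. The comparison at matched distance from the midpoint was added after the first motif shares were seen. One member window is not reported here.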

Additional observations from a re-analysis of the deposited data

How the results depend on the processing

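The 8 main values (shares, ratios, distances and the GC difference) were recomputed under alternative settings, many of which were applied to several values. This gave 78 recomputed values, which are not independent. Of these, 64 stayed within the interval or spread of the main value and 14 moved beyond it. The share of pairs with a LAP-Smad2 peak became 15.8% with centres within 500 bp of both starts and 11.95% when the peak interval had to overlap the stretch between the starts widened by 100 bp. The LAP-Smad3 share became 13.2% and 11.3% in the same way, and 8.91% with the list cut to the length of the LAP-Smad2 list. The share of LAP-Smad2 pairs with a LAP-Smad3 peak became 12.1% (500 bp), 13.2% (interval), 9.70% (equal length) and 10.5% (peaks overlapping by 1 bp). Without reweighting for GC content the ratios of divergent to one-way promoters were 1.27 for LAP-Smad2 (1.11 to 1.45), where the value at matched GC content was below 1, and 1.80 for LAP-Smad3. With bins of the observed over expected CpG ratio, the LAP-Smad2 ratio was 0.864 (0.755 to 0.984), an interval that no longer includes 1. The median distances became 294.5 bp and 220.5 bp with centres within 500 bp, where the rule itself bounds the distance. The GC difference was 9.62 percentage points over the pairs held by 1 list alone. Summits, a q-value of 0.01, a gap of up to 500 bp, pairs with genes in no other pair and the removal of copies moved none of the values beyond that range, nor did removing the clustered histone pairs, which was added later. Of 509 pairs whose 5′ ends overlap, 24.6% held LAP-Smad2 and 18.7% LAP-Smad3. No paired analysis was possible because each condition had 1 library. The unknown depth, the single libraries and the unequal list lengths limit the comparison of shares between the lists, and positions, base composition and motifs describe these lists only.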
